A study of Mus musculus with 5 samples.

Results

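The 10 genes of glycolysis and of phosphate buffering described here were chosen by gene symbol: Aldoa, Aldoc, Gapdh, Pgk1, Pgam1, Eno1, Eno2, Ldha, Ldhb and Ckb. The array's probe-to-gene table gave 13 probes for 9 of these 10 genes, of 45281 probes in all, and Eno1 was not analysed here. RNA came from parvalbumin-positive cells (PV-cells), sorted from the cerebral cortex of C57BL/6J mice that all carried PV-GFP, and each of 5 samples was read on a single-colour Illumina bead array. The WT group (Clock+/+) held 3 samples, replicates 1, 2 and 3, from mice aged 61, 64 and 64 days, and the KO group (Clock-/-) held 2 samples, replicates 1 and 3, aged 61 and 60 days, all taken at zeitgeber time 16 h. The labels give the deletion as a genotype of the mouse and name no Cre driver. They do not say whether a sample is 1 animal or a pool, so the p-values below measure only the spread between these samples. The 3 probes for Clock stayed at background in WT and KO alike (lowest detection p 0.338), so the deletion could not be checked from these data.

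Glycolysis breaks glucose down to pyruvate in the cytosol and makes a little ATP on the way. Aldolase (Aldoa, Aldoc) splits the sugar into triose phosphates, Gapdh oxidises a triose phosphate, Pgk1 makes ATP from the product, Pgam1 moves the phosphate group and enolase (Eno1, Eno2) removes water, after which lactate dehydrogenase (Ldha, Ldhb) interconverts pyruvate and lactate. Eno2 is the enolase typical of neurons, while Aldoc is known as the aldolase of astrocytes and of Purkinje cells. Ckb, the cytosolic creatine kinase of brain, is not a glycolytic enzyme. It passes phosphate between ATP and creatine and so buffers ATP where demand is high, and fast-spiking parvalbumin interneurons are known for high energy demand. CLOCK, the protein missing in KO, binds E-box elements together with BMAL1.

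Because CLOCK acts through E-boxes and several glycolytic genes are known targets of the hypoxia factor HIF-1, the promoters of the members were searched for both motifs, and 6 are shown. Each sequence is the 250 bases before an annotated start, 5′ to 3′ toward the gene, from RefSeq on GRCm38.p6. The windows are chr7:46845554-46845803 on the plus strand for Ldha, chrX:106186850-106187099 on the plus strand for Pgk1, chr19:41911621-41911870 on the plus strand for Pgam1, chr7:126799255-126799504 on the minus strand for Aldoa (1 of 3 annotated starts), chr6:124769674-124769923 on the minus strand for Eno2 and chr12:111672339-111672588 on the minus strand for Ckb. Capitals mark the E-box CACGTG and the hypoxia core ACGTG, searched on both strands, and every E-box also contains the core.
Ldha: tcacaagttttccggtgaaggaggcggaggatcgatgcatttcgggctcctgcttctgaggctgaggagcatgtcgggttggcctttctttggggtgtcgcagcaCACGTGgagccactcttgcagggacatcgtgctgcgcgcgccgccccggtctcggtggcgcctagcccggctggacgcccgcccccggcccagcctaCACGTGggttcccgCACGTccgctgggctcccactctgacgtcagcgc
Pgk1: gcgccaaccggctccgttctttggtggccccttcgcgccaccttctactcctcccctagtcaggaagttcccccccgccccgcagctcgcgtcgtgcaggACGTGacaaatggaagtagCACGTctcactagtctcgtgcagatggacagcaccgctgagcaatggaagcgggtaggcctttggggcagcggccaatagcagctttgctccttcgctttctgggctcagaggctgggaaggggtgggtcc
Pgam1: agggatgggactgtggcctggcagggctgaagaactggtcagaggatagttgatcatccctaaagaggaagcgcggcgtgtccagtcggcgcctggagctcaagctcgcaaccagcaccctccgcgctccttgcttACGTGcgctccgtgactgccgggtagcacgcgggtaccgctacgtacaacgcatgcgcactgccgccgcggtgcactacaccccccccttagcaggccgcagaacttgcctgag
Aldoa: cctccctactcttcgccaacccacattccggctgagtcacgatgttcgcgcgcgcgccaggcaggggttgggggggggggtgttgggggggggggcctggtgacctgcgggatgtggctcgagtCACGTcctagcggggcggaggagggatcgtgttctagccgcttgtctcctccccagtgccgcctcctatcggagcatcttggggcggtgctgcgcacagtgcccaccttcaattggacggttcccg
Eno2: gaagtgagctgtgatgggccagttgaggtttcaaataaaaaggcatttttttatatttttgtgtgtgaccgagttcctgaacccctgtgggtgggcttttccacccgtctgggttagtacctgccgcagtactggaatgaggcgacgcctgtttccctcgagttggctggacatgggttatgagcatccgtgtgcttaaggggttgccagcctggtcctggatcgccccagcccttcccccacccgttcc
Ckb: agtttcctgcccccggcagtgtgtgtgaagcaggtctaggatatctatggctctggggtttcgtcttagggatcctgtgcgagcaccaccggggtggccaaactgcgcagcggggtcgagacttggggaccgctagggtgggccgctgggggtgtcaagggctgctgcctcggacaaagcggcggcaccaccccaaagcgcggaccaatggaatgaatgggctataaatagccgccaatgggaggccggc
The Ldha window shown held 2 E-boxes, beginning 145 and 48 bases before the start. The window of another annotated Ldha start, chr7:46846832-46847081, held neither motif. Besides the Ldha window shown, none of the other 15 windows of the 10 genes held an E-box, and among all 32851 promoter windows of this length 6.02% did. The related letters CACGTT were in 0 of the 16 windows, against 3.85% of all. The hypoxia core was in 5 of the 16 windows, from Ldha, Pgk1, Pgam1 and Aldoa, and in 16.6% of all windows. The Aldoa windows with the core overlap and hold the same site, 202 and 126 bases before their starts, so that site is counted in both. Eno2 and Ckb held neither motif in these 250 bases. The 1 member with E-boxes in a window, Ldha, was not above background on any array, so the arrays give no level to set beside them.

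The members that could be measured covered both glycolysis and creatine kinase. A probe was tested when its deposited detection p was under 0.05 on at least 2 of the 5 arrays, which 6 of the 13 member probes (46.2%) were, from 5 genes, against 7.39% of all probes. Ckb, Eno2, Aldoa and 1 of 2 Pgam1 probes (ILMN_2856157) were above background on all 5 arrays, as were 2.29% of all probes. The other Pgam1 probe (ILMN_1232278) was so on 4 arrays and 1 of 3 Pgk1 probes (ILMN_2651886) on 3. By array, the number of member probes above background was 7, 6 and 5 in the WT samples, in order of replicate number, and 6 and 4 in the KO samples. The shares of all probes above background were 8.11%, 6.06% and 5.93% in WT and 5.98% and 4.37% in KO, so KO replicate 3 was the array with the fewest, members and all probes alike. At a threshold of 0.05, 2264 of the 45281 probes would pass by chance on an array. The count was 1978 on KO replicate 3, below that number, and 2685 to 3671 on the other arrays.

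Neither lactate dehydrogenase gene, nor Aldoc, was above background on any array. Their probes and the remaining pair of Pgk1 probes, 6 in all, had detection p-values from 0.137 to 0.657 and normalised values from 6.49 to 6.91 on the log2 scale. They give no level for either genotype. Gapdh, whose RNA is often taken as a reference in expression work, was above background on WT replicate 1 alone (detection p 0.0150), with p at 0.0620 and 0.113 on the other WT arrays, 0.175 on KO replicate 1 and 0.260 on KO replicate 3. Its normalised values were 7.30, 7.11 and 6.96 in WT and 6.85 and 6.76 in KO. Both KO values lay below all WT values, but the WT mean was under the lowest signal that counted as detected on the KO arrays, so no fold is given. Gapdh and Pgam1 have many near-identical processed copies in the mouse genome, and their probes may read some of these.

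**Figure D1:**
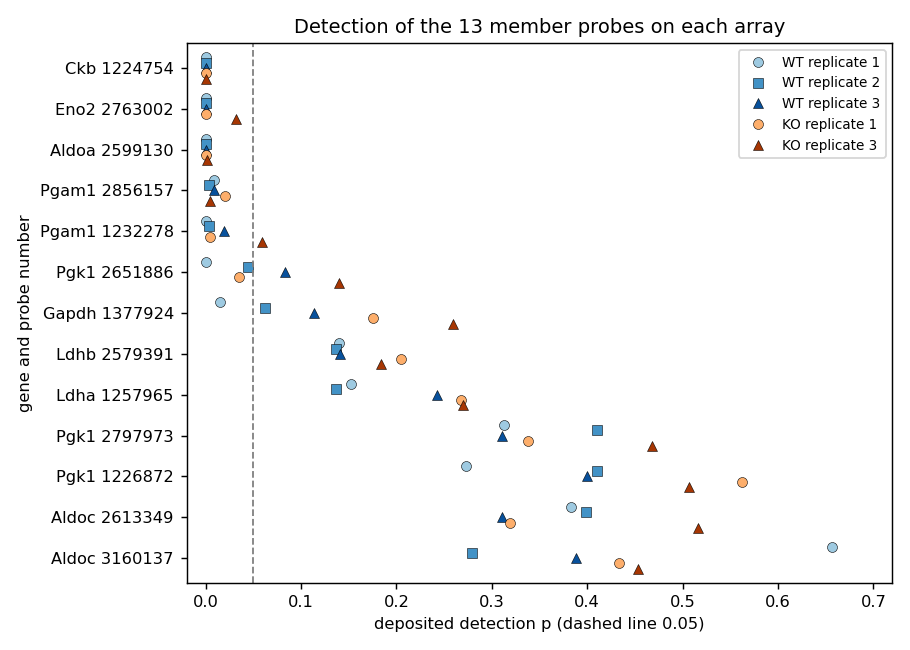
Deposited detection p of the 13 member probes (rows, gene and probe number) on each of the 5 arrays, with a dashed line at 0.05. Ckb, Eno2, Aldoa and Pgam1 probe ILMN_2856157 lie left of the line on all arrays, Gapdh crosses it on WT replicate 1 alone, and the probes of Ldha, Ldhb and Aldoc lie right of it throughout.

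KO was set against WT to ask whether energy genes differ when Clock is deleted, and no member passed the test. Of 6 tested member probes 0 had a limma adjusted p under 0.05, as did 0 of all 3347 tested probes (0.00%). The smallest adjusted p among members was 0.801. Without adjustment, 2 member probes had a p under 0.05, Eno2 (0.0217) and Ckb (0.0438), both lower in KO, and 2.90% of all tested probes were lower at that p. With 3 arrays against 2 there are 10 splits, and an exact permutation test of 1 probe cannot give a two-sided p below 0.1. The values themselves were nonetheless lower in KO for 5 of the 6 member probes, with a median difference of -0.40 on the log2 scale, against 49.4% of all tested probes and a median of 0.0048. The background depended on the filter. With detection p under 0.01 in place of 0.05, 60% of all tested probes were lower (median -0.082), as were 4 of 5 member probes. With detection on all 5 arrays 46.8% were lower (median 0.0225), as were 3 of 4 member probes. Of the 6 member probes of the main test, 5 stayed below the median of all tested probes on the authors' processed values and when no background was corrected. Under median scaling all 6 did, and that median moved by -0.37. After cyclic loess 5 were lower, but not the same 5, as described for Ckb and Pgam1 below.

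Eno2, the neuronal enolase, ranked 2 of all 3347 tested probes from the lowest difference upward. Its normalised log2 values were 8.94 (replicate 1), 9.05 (replicate 2) and 8.88 (replicate 3) in WT, and 8.60 (replicate 1) and 7.39 (replicate 3) in KO. Both KO arrays lay below all 3 WT arrays, which sat within 0.17 of each other, and KO replicate 3 lay far below KO replicate 1. WT averaged 8.96 ± 0.086 (SD, n = 3), whereas KO averaged 8.00 ± 0.85 (SD, n = 2). KO minus WT was -0.96 ± 0.33 (SE), with a limma adjusted p of 0.801. The deposited intensities before normalisation were 3451, 4282 and 4272 in WT and 3928 and 2934 in KO, where the groups overlapped. On the authors' processed values they did not, with 2272, 2407 and 2219 in WT and 1950.1 and 1130.2 in KO. The Eno2 difference depended on which arrays were kept. Without KO replicate 3, and with the others normalised anew, it was -0.37, and without KO replicate 1 it was -1.70. Without WT replicate 1 it was -0.54 normalised anew but -0.97 with the normalised values kept. The value without KO replicate 1 passed limma's test (adjusted p 0.0423) as a comparison of WT with KO replicate 3 alone, assumed to vary like the WT arrays. Eno2 was close to background on KO replicate 3, with a detection p of 0.0321, and at 0 on the other arrays.

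Ckb, the creatine kinase, had the smallest WT spread of the 6 tested member probes. Its WT values were 10.59, 10.43 and 10.49 in order of replicate number, against 10.25 (replicate 1) and 9.90 (replicate 3) in KO. Both KO arrays lay below all WT arrays, again with KO replicate 3 lowest. The means were 10.50 ± 0.084 (SD, n = 3) and 10.08 ± 0.25 (SD, n = 2), a difference of -0.43 ± 0.17 (SE), or 1.34-fold lower in KO, with a limma adjusted p of 0.801. The deposited intensities were 5595, 6119 and 6215 in WT and 5646 and 4401 in KO, where KO replicate 1 fell inside the WT range. The Ckb difference was -0.25 without KO replicate 3, -0.22 on the authors' processed values and -0.15 without background correction. It turned positive, at 0.58, under cyclic loess, and was -2.08 under median scaling.

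Aldoa, the aldolase of muscle and most tissues, also had groups that did not overlap. The WT samples read 8.73, 9.02 and 9.08 in order of replicate number, whereas KO replicate 1 read 8.68 and KO replicate 3 read 8.45. The distance from the lowest WT array to the highest KO array was small, since WT replicate 1 sat next to KO replicate 1. The deposited intensities overlapped, at 3226, 4219 and 4494 in WT and 4000.0 and 3332 in KO. The difference was -0.38 ± 0.18 (SE), or 1.30-fold lower in KO, with a limma adjusted p of 0.801. It kept its sign under all 13 alternative settings and in all 10 fits without an array, and shrank to -0.090 with age as a covariate. Only WT replicate 1 and KO replicate 1 shared an age, so a fit with that covariate can hardly separate age from genotype. In all, 3 of the 6 tested member probes had both KO arrays below all WT arrays and 0 had both above after normalisation, while on the deposited intensities 0 were separated in the lower direction. For Eno2, Ckb and Aldoa that overlap was with WT replicate 1 alone, the dimmest array before normalisation. Its median intensity over all probes was 1121, against 1687 and 1991 on the other WT arrays and 1946 and 1871 in KO. The share of all tested probes separated on the deposited intensities was not computed, so the 0 there cannot be read as a result about the members. After normalisation 10.6% of all tested probes were separated in the lower direction and 11.2% in the higher.

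The probes of the middle steps did not separate the genotypes. For Pgam1, phosphoglycerate mutase, the probe ILMN_1232278 read 8.17, 7.94 and 7.45 in WT and 7.66 and 7.19 in KO, and the probe ILMN_2856157 read 7.32, 8.00 and 7.80 in WT and 7.40 and 8.11 in KO. Groups overlapped on both, and the 2 probes of this gene ordered the arrays differently. WT replicate 1 was the highest array on ILMN_1232278 and the lowest on ILMN_2856157, and KO replicate 3 was the lowest on ILMN_1232278 and the highest on ILMN_2856157. Their differences were -0.43 ± 0.26 (SE) and 0.050 ± 0.28 (SE), with limma adjusted p-values of 0.801 and 0.978. The second of these changed sign in 7 of 23 alternative fits. ILMN_1232278 was not above background on KO replicate 3 (detection p 0.0588), so its value there is near the floor of the array. Without WT replicate 1 the ILMN_1232278 difference was -0.10 normalised anew and -0.28 with values kept.

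Pgk1, the first ATP-making kinase of the pathway, was measured by 1 of its 3 probes. That probe read 7.79, 7.19 and 7.05 in WT, in order of replicate number, while KO replicate 1 read 7.28 and KO replicate 3 read 6.94. KO replicate 1 lay inside the WT range, and WT replicate 1 stood above the rest. The difference was -0.23 ± 0.25 (SE), with a limma adjusted p of 0.848, and it was -0.014 without WT replicate 1. The probe was not above background on WT replicate 3 (detection p 0.0833) or KO replicate 3 (0.140), so its values there are near the floor of each array. The remaining probes of Pgk1 were at background on all arrays, so they neither share this order nor go against it.

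**Figure D2:**
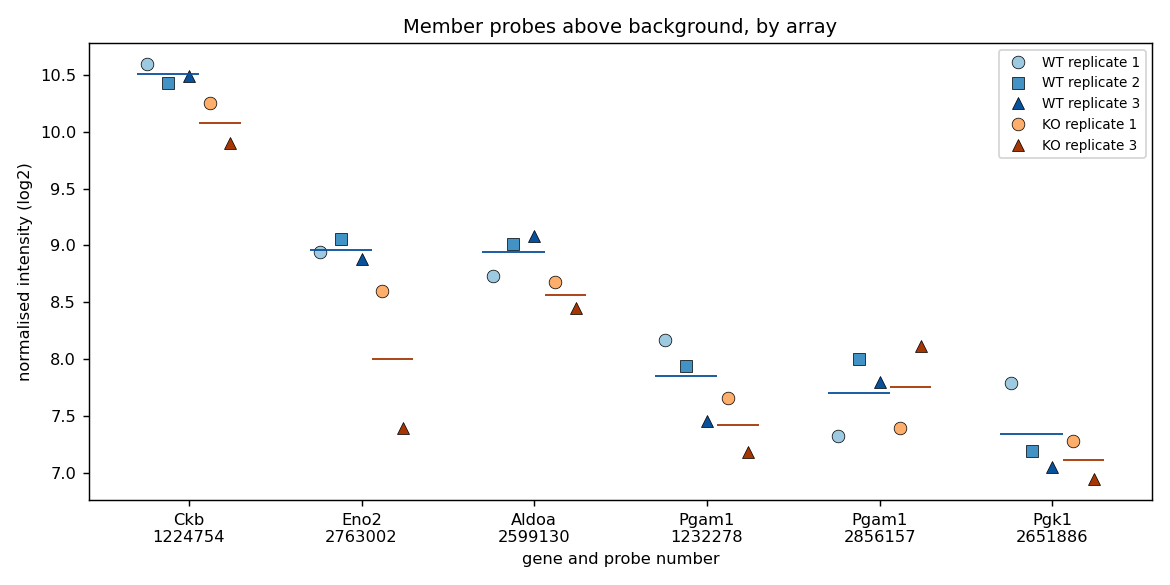
Normalised intensity (log2, vertical axis) of the 6 tested member probes on each of the 5 arrays, with points for arrays and horizontal lines for the mean of each genotype. Arrays can be compared within a probe but levels not between probes. For Ckb, Eno2 and Aldoa both KO points lie below the 3 WT points, while the 2 Pgam1 probes place KO replicate 3 at opposite ends.

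Across the members KO replicate 3 departed further from WT than KO replicate 1 did. Averaged over the 6 tested probes, the deviation from the WT mean was -0.24 on KO replicate 1 and -0.55 on KO replicate 3, while the WT arrays stood at 0.039, 0.054 and -0.093. The same average over all 3347 tested probes was 0.016 and -0.022 on the KO arrays. KO replicate 1 lay below the WT mean on all 6 probes, as it did on 49.2% of all tested probes. It lay below all WT arrays on 3 of the 6, Eno2, Ckb and Aldoa, which are the probes already described as not overlapping. The matching share of all tested probes was not computed, so that count shows nothing particular to the members. KO replicate 3 was the lowest of the 5 arrays on 5 of the 6, which 29.0% of all tested probes also showed, and the highest on the remaining 1, Pgam1 probe ILMN_2856157. Without KO replicate 3 all 6 member probes were lower in KO, with a median difference of -0.26. Of all tested probes 48.6% were lower in that fit when the rest were normalised anew, and 49.2% with values kept.

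Markers of the sorted cells moved on the same array. The summed normalised intensity of the probes of 10 parvalbumin interneuron markers was 4032 to 4381 in WT, 3764 on KO replicate 1 and 3091 on KO replicate 3. That of 6 GABA neuron markers was 3593 to 4023 in WT, 3836 on KO replicate 1 and 2416 on KO replicate 3. Of 5 tested parvalbumin interneuron markers 4 were lower and 1 higher in KO, none past the threshold. Pvalb read 8.79 to 9.18 in WT, 8.22 on KO replicate 1 and 7.19 on KO replicate 3, where it was not above background. Vamp1, a vesicle fusion gene, read 7.55 to 7.99 in WT, and 7.78 and 8.55 on the same KO arrays, so KO replicate 3 was the highest of the 5 there. The part of these shifts in the values of the energy genes was not tested, and in bulk RNA fewer cells of a type and less RNA per cell cannot be told apart. For astrocytes, the summed normalised intensity of the probes of 11 markers was 2210.0 to 2224 in WT and 2217 and 2235 in KO, and 10 of the 11 were at background throughout. The exception, Aldh1l1, was above background on WT arrays alone, but all its values were near the floor. It read 7.17 to 7.31 in WT and 7.10 and 7.18 in KO, with overlapping groups. No marker of excitatory neurons (7), microglia (8) or blood (3) was above background on any array. Of 9 oligodendrocyte lineage markers 8 were at background throughout, and the summed normalised intensity of the probes of all 9 was 2089 to 2156 in WT and 2100 and 2131 in KO. Of 8 endothelial and mural markers 6 were at background throughout, with sums of 1679 to 1750 in WT and 1708 and 1719 in KO. As most astrocyte, oligodendrocyte and endothelial markers were at background, their sums give no level for either genotype.

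**Figure D3:**
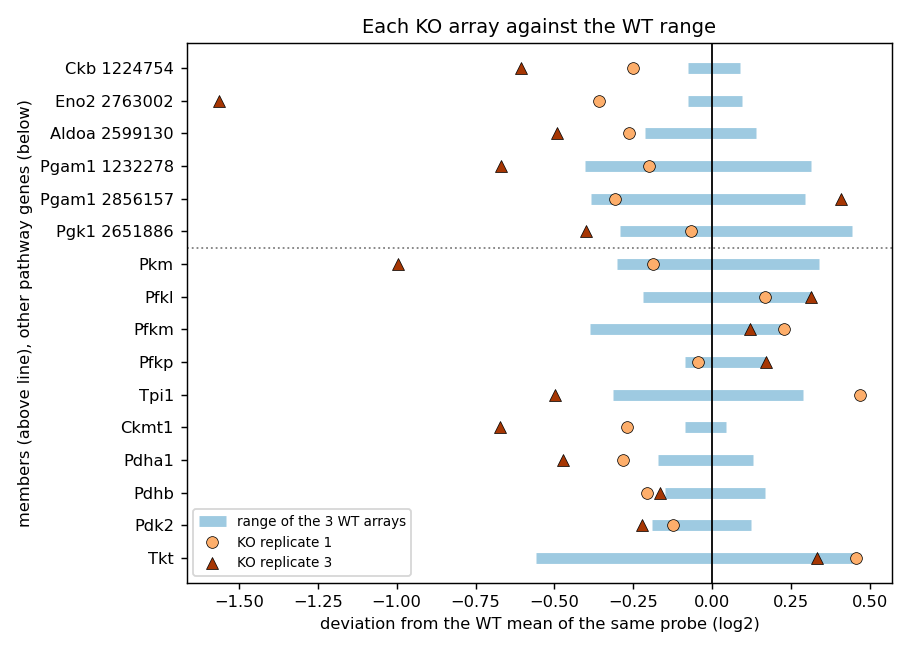
Deviation of each KO array from the WT mean of the same probe (log2, horizontal axis) for the 6 tested member probes, above the dotted line, and for all tested genes of 4 other pathway lists, below it, with bars for the range of the 3 WT arrays. Both KO points lie left of the bar for Ckb, Eno2 and Aldoa among the members, and for Ckmt1, Pdha1 and Pdhb among the others. Pdhb was at background on both KO arrays and Pdha1 on KO replicate 3, so those points give no level.

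The other genes of energy metabolism gave values on both sides of 0. Of 17 other glycolytic enzymes on the array 5 were tested, of which 0 passed, 2 were lower and 3 higher in KO, with a median difference of 0.064. Pkm, pyruvate kinase, which completes glycolysis, read 8.09, 8.36 and 8.73 in WT and 8.21 and 7.40 in KO. The groups overlapped, and KO replicate 3 again stood lowest (difference -0.59 ± 0.29, SE; limma adjusted p 0.801). Pfkl and Pfkm, subunits of the rate-setting phosphofructokinase, were at 0.24 and 0.17 in the other direction, with overlapping groups. Pfkl was above background on 4 arrays, and its value on WT replicate 3 (7.157) was under the lowest signal detected there (7.173). Under median scaling, where 99.4% of all tested probes were lower in KO, Pfkl and Pfkm were below 0 as well (-0.34 and -0.73). Pfkm was at -0.0086 without WT replicate 1 and normalised anew. No difference between the Pkm and phosphofructokinase shifts was tested. The Pkm difference was -0.19 without KO replicate 3 and -1.11 without KO replicate 1, and without WT replicate 1 it was -0.30 normalised anew and -0.74 with values kept. Without WT replicate 1 Pfkl was at 0.086 and 0.19 in the same order. With age as a covariate Pkm shrank to -0.089, while Pfkl was at 0.33 and Pfkm at 0.64.

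Creatine kinase had its mitochondrial form beside it. Ckmt1, which charges creatine at the mitochondrion, was the 1 tested gene of 6 other creatine genes. Its WT values were 8.48, 8.61 and 8.61 in order of replicate number, while KO replicate 1 read 8.30 and KO replicate 3 read 7.90. Both KO arrays lay below all WT arrays, in the order seen for Ckb. The difference was -0.47 ± 0.18 (SE), with a limma adjusted p of 0.801. It was -0.28 without KO replicate 3, and without WT replicate 1 it was -0.24 normalised anew and -0.51 with values kept.

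Of 11 genes of pyruvate entry into mitochondria 3 were tested and 0 passed the threshold. Pdha1, a subunit of pyruvate dehydrogenase, read 7.48, 7.70 and 7.78 in WT and 7.37 and 7.18 in KO, a difference of -0.38 ± 0.17 (SE; limma adjusted p 0.801). Pdha1 was not above background on KO replicate 3, so that value is near the floor of the array, and the difference was -0.17 without WT replicate 1 and normalised anew, against -0.46 with values kept. Pdhb, another subunit of that enzyme, and Pdk2, a kinase that inhibits it, were at background on both KO arrays and give no fold. Tkt, the transketolase, was the 1 tested gene of 6 in the hexose monophosphate branch, at 0.40 with overlapping groups (-0.57 under median scaling). Without WT replicate 1 the Tkt difference was 0.061 normalised anew and 0.12 with values kept. None of 9 genes of glucose and lactate transport and none of 9 genes that switch glycolysis met the detection rule.

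**Figure D4:**
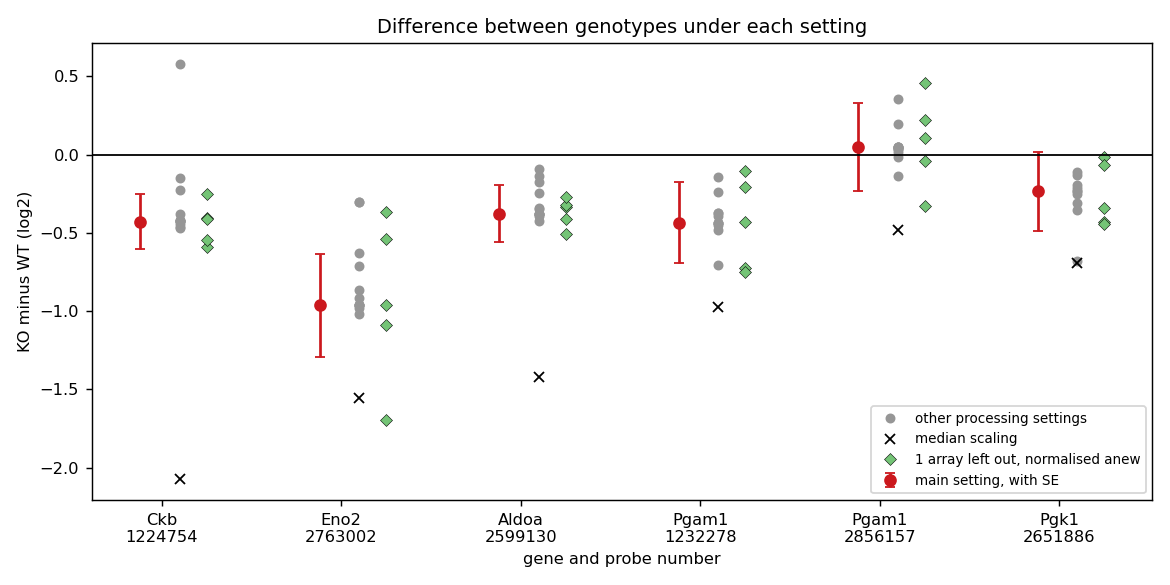
KO minus WT (log2, vertical axis) for the 6 tested member probes, with the main value and its SE, the other processing settings, median scaling, and the fits that left out 1 array and normalised the rest anew. Eno2, Aldoa, Pgam1 probe ILMN_1232278 and Pgk1 stay below 0 in all of them, Ckb rises to 0.58 under cyclic loess, and Pgam1 probe ILMN_2856157 lies on both sides of 0.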

How the data were processed

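Per the file headers, the authors deposited for every array the raw intensity of 45281 probes, linear and not normalised, with a detection p-value beside each. A second deposited table holds the authors' processed intensities, made by steps that the labels and headers do not give. GenomeStudio is named in the submitters' processing notes. Per the labels' protocols RNA was amplified and biotin-labelled.

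Intensities were background corrected from the detection p-values, quantile normalised and set to log2 with offset 16 (neqc, limma 3.58.1 in R 4.3.3). Probes with detection p under 0.05 on at least 2 of 5 arrays were tested, 3347 in all. The two-sided test was limma's (lmFit, eBayes), and p-values were adjusted by Benjamini and Hochberg's method over these probes, with a threshold of 0.05. Probes were named from the supplied platform table. Other genes were updated to RefSeq symbols, and a list gene was represented by its brightest tested probe.

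All member probes are named, with up to 3 tested genes of smallest p from each list, Clock, and the 5 nearest profiles. Pvalb, Vamp1 and Aldh1l1 were named after their values were seen. The members and lists were chosen with earlier results of these data known. The number of arrays limits the precision. KO replicate 3 correlated with the other arrays at 0.751 to 0.827 across tested probes, and the others with each other at 0.860 to 0.924. The labels name no slide, scan or extraction batch. Alternatives covered background, scaling, offset, the authors' values, filters, the variance model, array weights, the replicate block, age and leaving out each array. Planned contrasts of isozymes within an array (Aldoa and Aldoc, Eno1 and Eno2, Ldha and Ldhb) were not made, as 0 pairs had both genes tested.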

Additional observations from a re-analysis of the deposited data

How the results depend on the processing

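Under the 13 settings that kept all arrays, 0 probes passed over all tested probes and 0 among members. Leaving out 1 array gave 0 to 27 probes with the rest normalised anew and 0 to 48 with values kept, and 0 to 1 among members, which was Eno2 without KO replicate 1 (-1.70 and -1.56, limma adjusted p 0.0423 and 0.0305). The number of member probes lower in KO was 5 to 6 without 1 array, 12 of 13 with no filter on dim probes, where 7 of the 13 failed the detection rule and their signs have no meaning, and 3 of 4 with detection on all 5 arrays. Their median difference of -0.40 became -0.14 without background correction, -1.20 under median scaling, -0.19 after cyclic loess, -0.084 with no filter and -0.57 with age as a covariate, and -0.53 to -0.26 (normalised anew) or -0.55 to -0.26 (values kept) without 1 array. With age as a covariate the differences were -0.090 for Aldoa, -0.46 for Ckb, -0.71 for Eno2 and -0.68 for Pgk1. For Pgam1 they were -0.71 (ILMN_1232278) and 0.36 (ILMN_2856157), and for Tkt the difference was 1.06. Ckb reversed after cyclic loess (0.58). Pgam1 probe ILMN_2856157 reversed under median scaling (-0.48), cyclic loess (-0.016), array weights (-0.14), without WT replicate 1 (-0.039 and -0.14) and without KO replicate 3 (-0.33 and -0.31). Among other genes, median scaling also reversed Pfkl (-0.34), Pfkm (-0.73) and Tkt (-0.57), and Pfkm reversed without WT replicate 1 (-0.0086 and -0.019). The causes were not tested. Member detections summed over arrays were 28 at p under 0.05 and 22 at p under 0.01. With the replicate number as a block, 0 probes passed, the median was -0.37 and Eno2 -0.91. The block fit rests on the 2 shared numbers, whose samples correlated in their deviations at 0.202 and 0.129, too few pairs to show pairing. With 2 KO arrays the deviations of KO replicates 1 and 3 mirror each other. Mismatched pairs therefore gave -0.202 and -0.129 by construction, so these values cannot test pairing. Low signal over background limits what these arrays can show, since 7 of 13 member probes could not be tested.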

Other observations

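Among 2242 other named genes, those whose values over the 5 arrays lay nearest to the mean profile of the 6 tested member probes were the zinc finger gene Zfp512, the sodium channel gene Scn8a, the asparagine synthetase gene Asns, the enoyl reductase gene Tecr and the stress kinase gene Mapk10. Likeness was the root mean square distance of profiles centred on their own mean, on the log2 scale, and was 0.0490, 0.0649, 0.0708, 0.0759 and 0.0776 in that order, against a median of 0.290 over these genes. Scn8a, which encodes a channel of the axon initial segment, read 7.36, 7.44 and 7.36 in WT and 7.18 and 6.96 in KO. The lowest signal that counted as detected was 7.17 on KO replicate 1 and 7.26 on KO replicate 3. On KO replicate 3 Zfp512 (7.05), Scn8a, Asns (6.77) and Mapk10 (6.88) lay below it, as did Asns and Mapk10 (both 7.03) on KO replicate 1. The likeness of these genes thus rests in part on values at background. Among the members themselves, which make up the mean, Ckb lay nearest to it (0.0748) and Pgam1 probe ILMN_2856157 farthest (0.457), with Eno2 at 0.397. With 5 arrays and so many genes these distances are a description and carry no test.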
